A study of Mus musculus with 14 samples.

Results

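The genes described here carry calcium through the contraction cycle of the heart muscle cell. They are Ryr2, Atp2a2, Pln, Casq2, Asph, Trdn, Jph2, Cacna1c, Cacnb2 and Slc8a1, and they were taken by name as genes of the sarcoplasmic reticulum and the dyad. The choice used no threshold on measured values but was made with earlier results of these data known. These 10 genes were found by Ensembl ID among the 54446 genes of the count table. All 10 passed the filter on low counts, which kept 17987 genes.

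Each heartbeat starts with calcium entry through L-type channels of the cell membrane, which opens release channels of the sarcoplasmic reticulum, the calcium store inside the cell. Both channels face each other across a narrow cleft, the dyad, where junctional proteins hold the membranes together and bind the store's calcium buffer to the release channel. Relaxation follows when a pump returns calcium to the store and an exchanger moves the rest out of the cell. In mouse hearts this apparatus matures in the weeks after birth.

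The data were read counts from polyA-selected RNA of heart nuclei, enriched for PCM1, a protein at the nuclear surface of cardiomyocytes. All mice were wild-type and of the ICR strain, and virus was injected into the abdomen on postnatal day 7, with hearts taken on postnatal day 12. YAP5SA_MEF2A mice got both AAV:cTnT-YAP5SA and AAV:cTnT-hMEF2A, packaged as AAV9, YAP5SA mice the first alone and MEF2A mice the second alone, and Control mice got no virus. The dose was 1E11 genome copies of each virus, so YAP5SA_MEF2A mice received more virus in all. YAP5SA is a form of YAP that escapes inhibition by the Hippo pathway, hMEF2A is the human form of a muscle transcription factor, and the cTnT promoter drives both in cardiomyocytes. There were 2 YAP5SA_MEF2A, 3 YAP5SA, 4 MEF2A and 5 Control libraries, each named below by group and number. Batch 1 held 2 libraries of every group, and batch 2 held 1 YAP5SA, 2 MEF2A and 3 Control libraries. No source used here says whether a library came from 1 animal or from a pool, so a p-value gives the spread between libraries, part of which may be technical. A difference from Control holds the virus and its transgene together.

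Total counts were 16171068 to 24027622 per library. Genes of the mitochondrial chromosome took 32.2% of counts in YAP5SA 3, 60.75% in Control 1 and 67.54% in Control 2, the only Controls of batch 1, against 3.802% to 23.21% in the other 11 libraries. By sex-specific transcripts both YAP5SA_MEF2A libraries were female, all 3 YAP5SA libraries male, MEF2A 4 male and MEF2A 1, 2 and 3 female, and Controls 4 and 5 female and the other 3 male. Within batch 1 both YAP5SA libraries were male and both MEF2A libraries female. Group and sex thus cannot be told apart in the batch 1 values of YAP5SA against MEF2A below. In those of YAP5SA against Control, group cannot be told apart from the high mitochondrial share of Controls 1 and 2. All 12 cardiomyocyte markers were detected in every group. Their summed level was 46890.0 to 52040.0 CPM (counts scaled to a common library size) in YAP5SA_MEF2A, 34380.0 to 48490.0 in YAP5SA, 94440.0 to 101900.0 in MEF2A and 58550.0 to 105000.0 in Control, so both groups with YAP5SA lay below both groups without it. Of the other cell types, the summed level of 12 macrophage markers was 1084 CPM in YAP5SA 3 and 56.5 to 203 CPM in the other libraries. The part of these differences in the results below was not tested. In bulk RNA, fewer cells of a type and less RNA per cell cannot be told apart.

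YAP5SA against Control asks what active YAP does to these genes in the young heart. In YAP5SA hearts 3 of the 10 genes fell and none rose: Asph, which encodes the junctional protein junctin, Casq2, the calcium buffer of the store, and Cacna1c, the pore of the L-type channel. A call here means an adjusted p under 0.05 in edgeR's quasi-likelihood test over all genes, and 9.86% of all genes were called in this comparison, 4.17% as lower and 5.69% as higher. In these 3 genes every YAP5SA library was below every Control, as in 5.13% of all genes. The median log2 fold change of the 10 genes was -0.40, against 0.06 over all genes tested. Trdn (triadin) missed the threshold, while Jph2 (junctophilin-2) and Slc8a1 (the sodium-calcium exchanger) had fold changes above 0. YAP5SA against MEF2A, which sets the viruses beside each other, gave more calls: 7 genes fell, none rose, and the median was -0.81, against 0.08 over all genes. In that comparison 14.9% of all genes were called, 7.12% as lower and 7.77% as higher. In the 7 genes every YAP5SA library was below every MEF2A library, as in 13.7% of all genes. Both comparisons use the same 3 YAP5SA libraries.

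**Figure D1:**
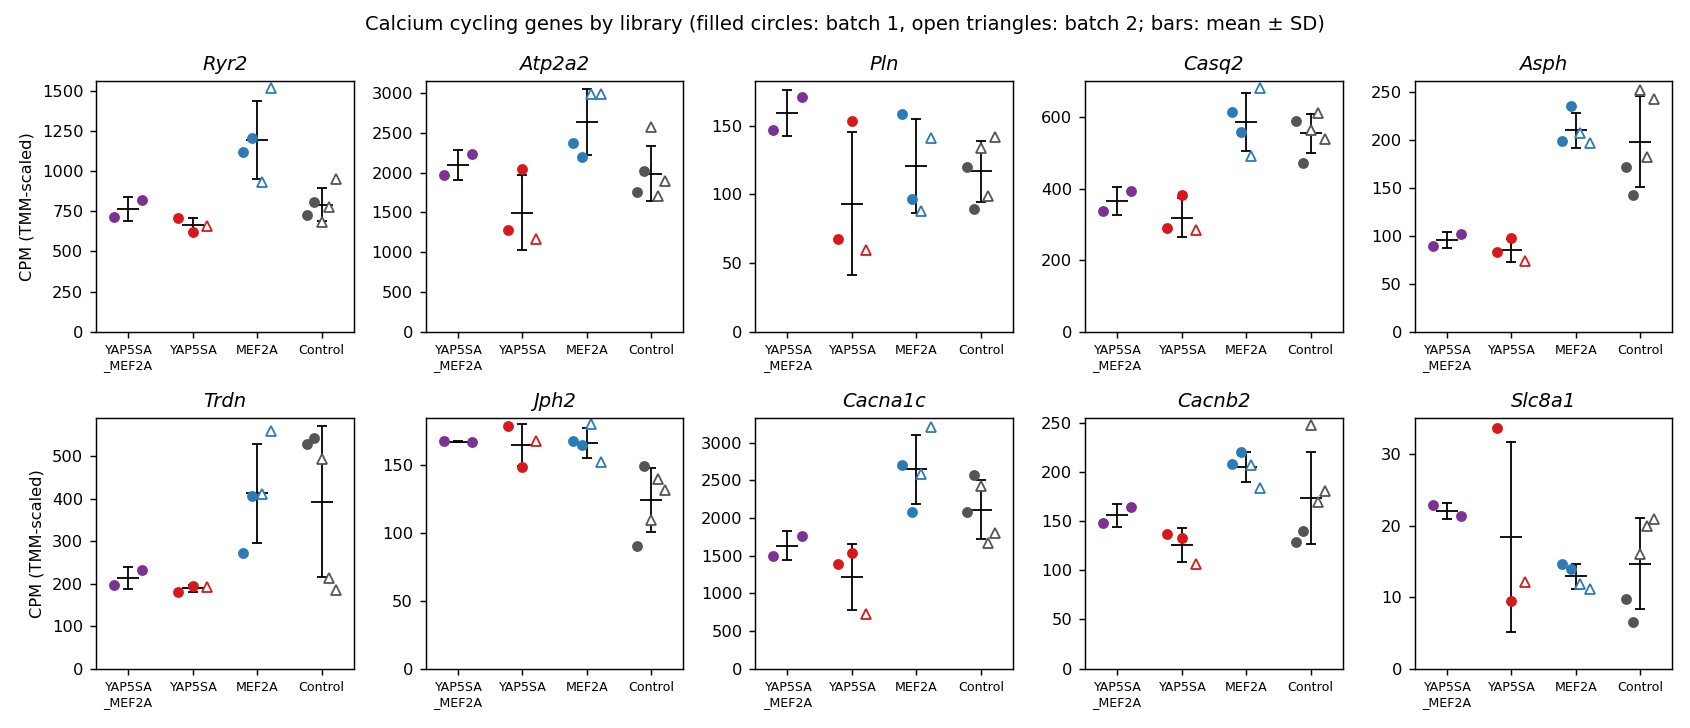
Level of each of the 10 genes in every library, in CPM with trimmed-mean (TMM) scaling, with a linear axis from 0 in each panel. Filled circles are batch 1, open triangles batch 2, and bars give mean ± SD. All 5 libraries with YAP5SA lie below all 9 others for Casq2 and Asph, a separation whose share over all genes was not counted. The Controls of Trdn split into 3 high and 2 low libraries.

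Calcium entry comes first in the cycle. Cacna1c (ENSMUSG00000051331, chromosome 6, 118587240 to 119196418 on GRCm38) encodes the pore of the cardiac L-type channel, CaV1.2. It had 1496 and 1764 CPM in YAP5SA_MEF2A, 1389, 1533 and 718 CPM in YAP5SA, 2702, 2084, 2585 and 3205 CPM in MEF2A, and 2084, 2573, 2425, 1660.0 and 1804 CPM in Control. All 3 YAP5SA libraries were below every MEF2A and every Control library, and YAP5SA 3, the library rich in mitochondrial and macrophage transcripts, was the lowest of all 14. Cacna1c fell in YAP5SA against Control, with a log2 fold change of -0.88 ± 0.25 (SE, adjusted p = 0.0337). This call rested on single libraries. Without YAP5SA 3 the change was -0.54 (adjusted p = 0.261), without Controls 1 and 2 it was -0.86 (adjusted p = 0.12), and without all 3 of these libraries, which were the richest in mitochondrial counts, it was -0.15 (adjusted p = 0.934). The call was also lost without YAP5SA 1, Control 1 or Control 2 (adjusted p = 0.0776, 0.0526 and 0.0683). Within batch 1 the change was -0.72 (adjusted p = 0.0611). Against MEF2A, Cacna1c fell by 1.204 ± 0.261 on the log2 scale (SE, adjusted p = 0.00553), with -0.72 (adjusted p = 0.088) within batch 1 and -0.86 (adjusted p = 0.0566) without YAP5SA 3.

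Cacnb2 (ENSMUSG00000057914, chromosome 2, 14603088 to 14987908) encodes the beta subunit that brings this channel to the membrane. It had 147.5 and 164 CPM in YAP5SA_MEF2A, 137, 133 and 106 CPM in YAP5SA, 208, 220.4, 207 and 183 CPM in MEF2A, and 128, 139.9, 248, 169 and 181 CPM in Control. The YAP5SA libraries were below every MEF2A library but overlapped the Controls, among which Controls 1 and 2 were the low ones. Cacnb2 fell in YAP5SA against MEF2A (log2 fold change -0.69 ± 0.21 SE, adjusted p = 0.037). The call was lost when any 1 of 7 libraries was left out, the highest p coming without YAP5SA 3 (-0.49, adjusted p = 0.246). Against Control the change was -0.42 ± 0.21 (SE, adjusted p = 0.223), and -0.83 (adjusted p = 0.0225) without Controls 1 and 2.

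Release is carried by Ryr2 (ENSMUSG00000021313, chromosome 13, 11553102 to 12106945), the ryanodine receptor of the heart. Its levels were 712 and 817 CPM in YAP5SA_MEF2A, 709, 623 and 657 CPM in YAP5SA, 1118, 1203, 930.0 and 1515 CPM in MEF2A, and 725, 809, 686, 776 and 953 CPM in Control. The MEF2A libraries were the high ones: all 4 were above every library with YAP5SA, and 3 of 4 were above every Control. Ryr2 fell in YAP5SA against MEF2A by 0.84 ± 0.20 on the log2 scale (SE, adjusted p = 0.00979), with -0.81 (adjusted p = 0.0395) within batch 1. Without YAP5SA 3 the change was -0.80 (adjusted p = 0.0539). The fold change of Ryr2 in YAP5SA against Control was -0.24 ± 0.19 (SE, adjusted p = 0.478).

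Around the release channel sit 3 proteins of the junctional store. Casq2 encodes cardiac calsequestrin, which binds calcium in the lumen, and Asph and Trdn encode junctin and triadin, which anchor calsequestrin to the channel. Asph (ENSMUSG00000028207, chromosome 4, 9448069 to 9669344) had 89.5 and 102 CPM in YAP5SA_MEF2A, 82.7, 97.8 and 74.2 CPM in YAP5SA, 199, 236, 207.5 and 197 CPM in MEF2A, and 172, 143, 252, 182 and 242 CPM in Control. Every library with YAP5SA was below every library without it, by a gap between 102 and 143 CPM. Asph fell in YAP5SA against Control (log2 fold change -1.18 ± 0.21 SE, adjusted p = 0.00195) and against MEF2A (-1.28 ± 0.21, adjusted p = 8.52e-04). Both calls held when any 1 library was left out, with adjusted p up to 0.0309 and 0.0102. Within batch 1 the changes were -0.85 (adjusted p = 0.0308) against Control and -1.28 (adjusted p = 0.0139) against MEF2A. In the latter, group and sex coincide. The same gene also encodes aspartyl/asparaginyl beta-hydroxylase, and gene counts do not separate its 15 protein-coding transcripts. Of its exon sequence, 14.71% overlaps genes of the other strand, one of which, Clvs1, had at most 1.04 CPM in any library.

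Casq2 (ENSMUSG00000027861, chromosome 3, 102086415 to 102146514) had 338 and 393.5 CPM in YAP5SA_MEF2A, 289.7, 382 and 285 CPM in YAP5SA, 614, 559.7, 492 and 680.2 CPM in MEF2A, and 589, 471, 564, 611 and 539 CPM in Control. As with Asph, the 5 libraries with YAP5SA were all below the 9 without it. The share of all genes that separate in this way was not counted. Casq2 fell in YAP5SA against MEF2A (log2 fold change -0.88 ± 0.19 SE, adjusted p = 0.00516), a call that held without any 1 library and was lost within batch 1 (-0.82, adjusted p = 0.0606). Against Control it fell by 0.80 ± 0.19 on the log2 scale (SE, adjusted p = 0.0109). That call was lost without YAP5SA 1 (-0.74, adjusted p = 0.0597) or YAP5SA 3 (-0.69, adjusted p = 0.0905), without Controls 1 and 2 and YAP5SA 3 (-0.76, adjusted p = 0.364) and within batch 1 (-0.70, adjusted p = 0.0622).

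Trdn (ENSMUSG00000019787, chromosome 10, 33080554 to 33476709) had 196 and 232 CPM in YAP5SA_MEF2A, 180.2, 195 and 192 CPM in YAP5SA, 273, 407, 413 and 559.5 CPM in MEF2A, and 529.6, 545, 494, 212.5 and 186 CPM in Control. The Controls split: Controls 4 and 5, the female ones, both of batch 2, lay within the range of the libraries with YAP5SA, while Controls 1, 2 and 3 were above it. Trdn fell in YAP5SA against MEF2A (log2 fold change -1.17 ± 0.37 SE, adjusted p = 0.0435), a call lost when any 1 of 8 libraries was left out, and within batch 1 (-0.87, adjusted p = 0.0579). Against Control the change was -1.08 ± 0.35 (SE, adjusted p = 0.0645). It passed within batch 1 (-1.56, adjusted p = 0.00625) and without Control 4, Control 5, MEF2A 1 or MEF2A 4 (adjusted p = 0.0309, 0.018, 0.0432 and 0.0468), and was -0.43 (adjusted p = 0.516) without Controls 1 and 2.

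The promoters of these genes bear on the design, since MEF2A binds DNA and YAP acts through TEAD factors. RefSeq promoter windows on GRCm38.p6, from 250 bases before to 50 after a start, matched 7 of the 10 genes with 11 windows. Atp2a2, Asph and Trdn had no window, so the search does not cover them. Cacna1c, Cacnb2 and Jph2 had several windows each, and those of Jph2 largely overlap. The TEAD core CATTCC, searched on both strands, was in none of the 11 windows and in 14.7% of 32851 promoters. The MEF2 consensus, also searched on both strands, was in 1 of the 11 and in 3.19% of all. That 1 was the Casq2 window, chr3:102086165-102086464 on the plus strand. It is printed with the window of Jph2, chr2:163397944-163398243 on the minus strand, because its fold change in YAP5SA against Control had the other sign. Capitals mark the match, whose first base is at position -69 with the start counted as 0. A match of letters is a description and not a binding site.
Casq2: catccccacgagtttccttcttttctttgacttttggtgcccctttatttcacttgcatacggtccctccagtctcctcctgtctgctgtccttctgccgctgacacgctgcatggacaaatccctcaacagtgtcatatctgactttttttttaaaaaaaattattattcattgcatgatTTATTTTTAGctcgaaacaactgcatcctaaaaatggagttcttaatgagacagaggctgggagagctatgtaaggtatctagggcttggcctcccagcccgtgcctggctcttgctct
Jph2: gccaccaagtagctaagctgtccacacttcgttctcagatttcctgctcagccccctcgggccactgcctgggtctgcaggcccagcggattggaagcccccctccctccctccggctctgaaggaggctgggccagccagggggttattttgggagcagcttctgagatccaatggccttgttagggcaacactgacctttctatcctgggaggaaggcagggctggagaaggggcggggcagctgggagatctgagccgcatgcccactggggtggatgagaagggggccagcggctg

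Jph2 (ENSMUSG00000017817, chromosome 2, 163336242 to 163397993) encodes junctophilin-2, which tethers the reticulum to the cell membrane at the dyad. It had 168 and 167 CPM in YAP5SA_MEF2A, 179, 149 and 168 CPM in YAP5SA, 168, 165, 180.3 and 153 CPM in MEF2A, and 90.7, 149, 109.8, 139.5 and 132 CPM in Control. Nearly all libraries with a virus were higher than every Control, the exception being YAP5SA 2, just below Control 2. No comparison called it. Its log2 fold change against Control was 0.46 ± 0.22 in YAP5SA_MEF2A (SE, adjusted p = 0.365), 0.42 ± 0.18 in YAP5SA (adjusted p = 0.146) and 0.43 ± 0.16 in MEF2A (adjusted p = 0.612). These 3 values share the Control libraries. Between YAP5SA and MEF2A the difference was -0.0046 ± 0.185 (SE, adjusted p = 0.991).

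Uptake is the work of Atp2a2 (ENSMUSG00000029467, chromosome 5, 122453513 to 122502225), which encodes the pump SERCA2, and Pln, its inhibitor phospholamban. Atp2a2 had 1968 and 2231 CPM in YAP5SA_MEF2A, 1282, 2040.0 and 1172 CPM in YAP5SA, 2367, 2196, 2987 and 2992 CPM in MEF2A, and 1758, 2016, 2574, 1703 and 1890.0 CPM in Control. YAP5SA 1 and 3 were the lowest of the 14 libraries, while YAP5SA 2 lay among the Controls and below every MEF2A library. Atp2a2 fell in YAP5SA against MEF2A (log2 fold change -0.79 ± 0.24 SE, adjusted p = 0.0329), with -0.47 (adjusted p = 0.288) within batch 1. That call was lost without MEF2A 1, 3 or 4 or without YAP5SA 1 or 3 (adjusted p = 0.0543 to 0.236). Against Control its change was -0.38 ± 0.23 (SE, adjusted p = 0.324), and -0.67 (adjusted p = 0.0318) without YAP5SA 2.

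Pln (ENSMUSG00000038583, chromosome 10, 53337667 to 53345987) had 147 and 171 CPM in YAP5SA_MEF2A, 67.3, 153 and 59.2 CPM in YAP5SA, 158.5, 96.3, 88 and 141 CPM in MEF2A, and 120.0, 89.1, 134, 98.9 and 142 CPM in Control. The YAP5SA libraries were again split, with YAP5SA 2 above all Controls and YAP5SA 1 and 3 below all other libraries. Its log2 fold change in YAP5SA was -0.39 ± 0.31 against Control (SE, adjusted p = 0.476) and -0.41 ± 0.31 against MEF2A (adjusted p = 0.407). Without YAP5SA 2 these were -0.88 (adjusted p = 0.0244) and -0.94 (adjusted p = 0.0158). The counts of Pln are uncertain, because 64.7% of its exon sequence overlaps genes of the other strand and the libraries carry no strand. One of these, Cep85l, had 11.3 to 20.8 CPM over the 14 libraries.

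Extrusion closes the cycle. Slc8a1 (ENSMUSG00000054640, chromosome 17, 81373105 to 81738377) encodes NCX1, the exchanger that trades calcium for sodium. Its levels were 22.9 and 21.3 CPM in YAP5SA_MEF2A, 33.7, 9.43 and 12.1 CPM in YAP5SA, 14.7, 13.9, 11.8 and 11.1 CPM in MEF2A, and 9.75, 6.52, 16, 20.0 and 21 CPM in Control. YAP5SA 1 was the highest of all libraries and YAP5SA 2 below every MEF2A library, so the groups overlapped. The log2 fold change in YAP5SA was 0.42 ± 0.44 against Control (SE, adjusted p = 0.614) and 0.56 ± 0.43 against MEF2A (adjusted p = 0.418), and without YAP5SA 1 both were below 0 (-0.35 and -0.31).

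**Figure D2:**
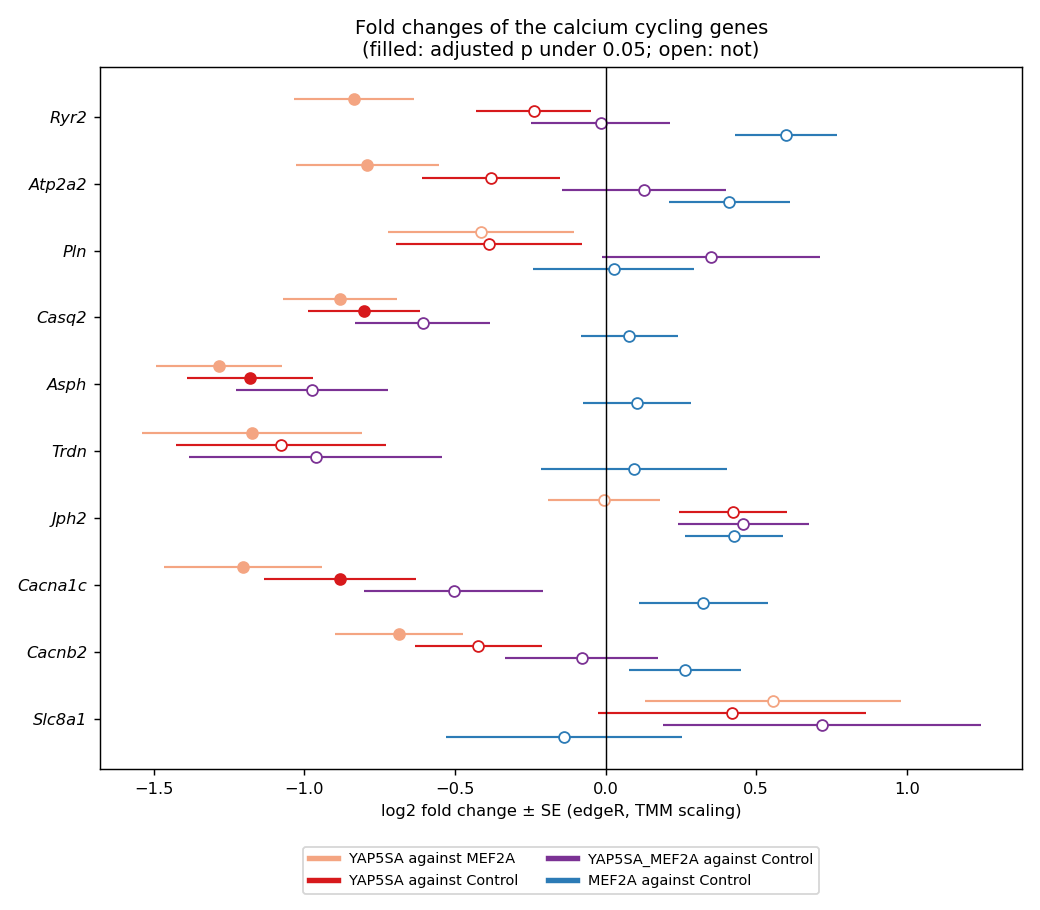
Log2 fold change ± SE of each gene in 4 comparisons, from edgeR with TMM scaling; filled points have an adjusted p under 0.05. In YAP5SA, 3 genes are called against Control and 7 against MEF2A, all below 0, while the 3 comparisons with Control share the same 5 libraries.

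MEF2A against Control asks what the added MEF2A alone does. None of the 10 genes was called, by edgeR, DESeq2 or limma-voom, in a comparison where edgeR called 0.0167% of all genes. At an unadjusted p under 0.05, 2 of the 10 were higher, Ryr2 and Jph2, and 1308 of all 17987 genes passed in either direction. Ryr2 averaged 1191 ± 244 CPM in MEF2A (SD, n = 4) and 789.8 ± 103 CPM in Control (SD, n = 5). Its log2 fold change was 0.60 ± 0.17 (SE, unadjusted p = 0.00249, adjusted p = 0.576), and that of Atp2a2 was 0.41 ± 0.20 (adjusted p = 0.695). All 4 MEF2A libraries exceeded all 5 Controls in 1 of the 10 genes, Jph2, and 1.88% of all genes did so. The median log2 fold change of the 10 genes was 0.18, against 0.015 over all genes.

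YAP5SA_MEF2A against Control asks the same of both viruses together. None of the 10 genes was called by edgeR, which called 1.36% of all genes, 1.16% as higher. DESeq2 called Asph and Casq2 with 4.53% of all genes called, and limma-voom called Asph with 2.34%. At an unadjusted p under 0.05, 3 were lower (Asph, Casq2 and Trdn) and Jph2 was higher. Of all 17987 genes, 2445 passed that p in either direction. Asph averaged 95.7 ± 8.68 CPM in YAP5SA_MEF2A (SD, n = 2) and 198 ± 47.2 CPM in Control (SD, n = 5). The log2 fold changes were -0.98 ± 0.25 for Asph (SE, adjusted p = 0.0645), -0.61 ± 0.22 for Casq2 (adjusted p = 0.208) and -0.96 ± 0.42 for Trdn (adjusted p = 0.329). Within batch 1, which holds both YAP5SA_MEF2A libraries, Asph was at -0.75 (adjusted p = 0.0451) and Trdn at -1.36 (adjusted p = 0.00925). The Controls there, 1 and 2, were both male with 60.75% and 67.54% mitochondrial counts, and both YAP5SA_MEF2A libraries were female. Group, sex and library quality cannot be told apart in that fit. In batch 2, Controls 4 and 5 had 212.5 and 186 CPM of Trdn, against 196 and 232 CPM in YAP5SA_MEF2A. The median of the 10 genes was -0.05, against 0.01 over all genes.

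YAP5SA_MEF2A against MEF2A asks what YAP5SA adds to MEF2A. Asph fell, the 1 gene of the 10 that was called, with 2.32% of all genes called, 0.706% as lower and 1.61% as higher. Its mean was 95.7 ± 8.68 CPM in YAP5SA_MEF2A (SD, n = 2) and 210 ± 17.8 CPM in MEF2A (SD, n = 4), and its log2 fold change was -1.08 ± 0.25 (SE, adjusted p = 0.0276). Within batch 1 the change was -1.18 (adjusted p = 0.0221), and the call was lost without MEF2A 1, MEF2A 2 or either YAP5SA_MEF2A library (adjusted p = 0.0601 to 0.442). Casq2 was at -0.69 ± 0.22 (SE, adjusted p = 0.129), Cacna1c at -0.83 ± 0.31 (adjusted p = 0.186) and Trdn at -1.06 ± 0.44 (adjusted p = 0.258). In 6 of the 10 genes both YAP5SA_MEF2A libraries were below all 4 MEF2A libraries, as in 18.3% of all genes.

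YAP5SA_MEF2A against YAP5SA asks the converse, what MEF2A adds to YAP5SA. The 10 log2 fold changes ran from 0.03 to 0.74, the median was 0.26 against 0.01 over all genes, and none was called, nor was any gene of the table (0.0% by edgeR). In Ryr2, Trdn and Cacnb2 both YAP5SA_MEF2A libraries were above all 3 YAP5SA libraries, as in 11.2% of all genes. None of the 10 passed an unadjusted p of 0.05, which 516 of all 17987 genes did, and DESeq2 and limma-voom called none of the 10. The highest value was that of Pln, which was called without YAP5SA 2 (1.34 ± 0.30 SE, adjusted p = 0.0383). The interaction, the effect of adding MEF2A to YAP5SA less the effect of MEF2A in hearts without it, was not called for any of the 10 genes or of the table (0.0%), and its values ran from -0.39 for Jph2 to 0.71 for Pln. No interaction passed an unadjusted p of 0.05 for these genes, while 441 of all 17987 genes did, and DESeq2 and limma-voom called none of the 10. Both YAP5SA_MEF2A libraries were female and all 3 YAP5SA libraries male. A fit with sex as a further term, which draws on the MEF2A and Control libraries of both sexes, also called 0 of the 10 genes in either comparison.

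How the libraries are scaled moves all these values. With TMM scaling the median of all genes in YAP5SA against Control was 0.06. Dividing by library totals, which include the mitochondrial transcripts, moved it to 0.69, and dividing by totals without them (nuclear totals) to 0.19. Under library totals none of the 10 genes was called in any comparison, and Ryr2, Atp2a2, Pln and Cacnb2 were at 0.42, 0.35, 0.27 and 0.23 in YAP5SA against Control, values above 0 but below the median of all genes. Asph (-0.55), Trdn (-0.33), Casq2 (-0.15) and Cacna1c (-0.11) remained below 0, and Jph2 (1.09) and Slc8a1 (1.02) lay above that median. In YAP5SA against MEF2A the medians of all genes were 0.08 with TMM, 0.51 with library totals and 0.39 without mitochondrial transcripts. The last of these scalings kept 3 calls against MEF2A (Asph -0.98, Casq2 -0.57 and Cacna1c -0.91) and 3 against Control (Asph -1.05, Casq2 -0.68 and Cacna1c -0.77). It called 18.4% of all genes against MEF2A and 11.1% against Control, where library totals called 8.92% and 9.65%.

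**Figure D3:**
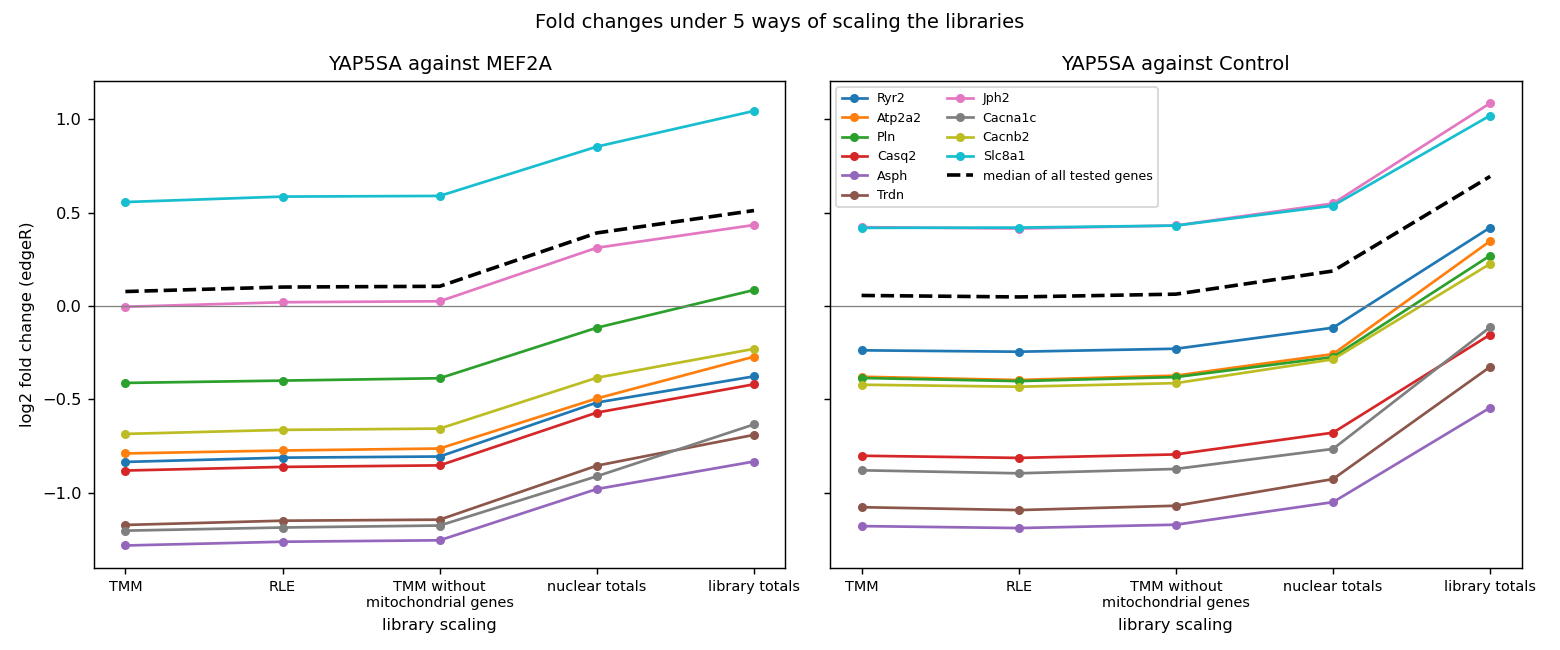
Log2 fold changes of the 10 genes under 5 ways of scaling the libraries, for YAP5SA against MEF2A (left) and against Control (right), with the median of all tested genes as a dashed line. Library totals lift all genes together; against Control, Asph, Trdn, Casq2 and Cacna1c are below 0 under each scaling and Jph2 and Slc8a1 above the dashed line.

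Set against cardiomyocyte markers of the same library, a quantity that scaling does not touch, the order of the groups changed. Casq2 then had 7.20 to 7.56 counts per 1000 counts of the 12 markers in YAP5SA_MEF2A, 6.71 to 8.28 in YAP5SA, 5.12 to 6.68 in MEF2A and 5.37 to 9.47 in Control. All 5 libraries with YAP5SA were above every MEF2A library there, the reverse of their order in CPM, while both groups with YAP5SA overlapped Control. Asph had 1.91 to 1.96 in YAP5SA_MEF2A, 1.92 to 2.16 in YAP5SA, 1.94 to 2.50 in MEF2A and 2.41 to 3.76 in Control, so both groups with YAP5SA were below all Controls but not below MEF2A. Cacna1c had 31.9 to 33.9 in YAP5SA_MEF2A, 20.9 to 32.2 in YAP5SA, 22.1 to 31.45 in MEF2A and 22.4 to 43.9 in Control. Cacnb2, which fell against MEF2A in CPM, was higher per marker, with 3.145 to 3.154 in YAP5SA_MEF2A, 2.75 to 3.18 in YAP5SA, 1.80 to 2.33 in MEF2A and 2.06 to 2.81 in Control. All YAP5SA libraries were above all MEF2A libraries there. Atp2a2 and Ryr2, which also fell against MEF2A in CPM, had higher ranges per marker in YAP5SA that overlapped those of MEF2A and Control. Both YAP5SA_MEF2A libraries were above every MEF2A and every Control library in these genes. Atp2a2 had 42.0 to 42.9 in YAP5SA_MEF2A, 29.7 to 42.1 in YAP5SA, 23.25 to 31.1 in MEF2A and 23.0 to 34.4 in Control. Ryr2 had 15.2 to 15.7 in YAP5SA_MEF2A, 12.8 to 19.1 in YAP5SA, 9.68 to 14.9 in MEF2A and 6.54 to 14.8 in Control. Trdn overlapped across the groups, with 4.18 to 4.46 in YAP5SA_MEF2A, 4.01 to 5.58 in YAP5SA, 2.79 to 5.49 in MEF2A and 2.87 to 9.30 in Control. Pln had 3.14 to 3.28 in YAP5SA_MEF2A, 1.56 to 3.16 in YAP5SA, 0.916 to 1.62 in MEF2A and 1.275 to 2.197 in Control. Slc8a1 had 0.409 to 0.488 in YAP5SA_MEF2A, 0.194 to 0.780 in YAP5SA, 0.109 to 0.150 in MEF2A and 0.111 to 0.326 in Control. All 5 libraries with YAP5SA were above every MEF2A library in Slc8a1 per marker. Jph2 had 3.22 to 3.58 in YAP5SA_MEF2A, 3.06 to 4.87 in YAP5SA, 1.498 to 1.88 in MEF2A and 1.05 to 2.55 in Control. All 5 libraries with YAP5SA were above all 9 without it in Jph2 per marker. The summed markers in CPM separate the same libraries, being lower in all 5, while Jph2 in CPM does not. How many of all genes separate in this way per marker was not counted. Of the 12 markers themselves, 3 fell in YAP5SA against Control and 8 against MEF2A, where 4.17% and 7.12% of all genes fell. These ratios were formed after the values had been seen and are given without a test.

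**Figure D4:**
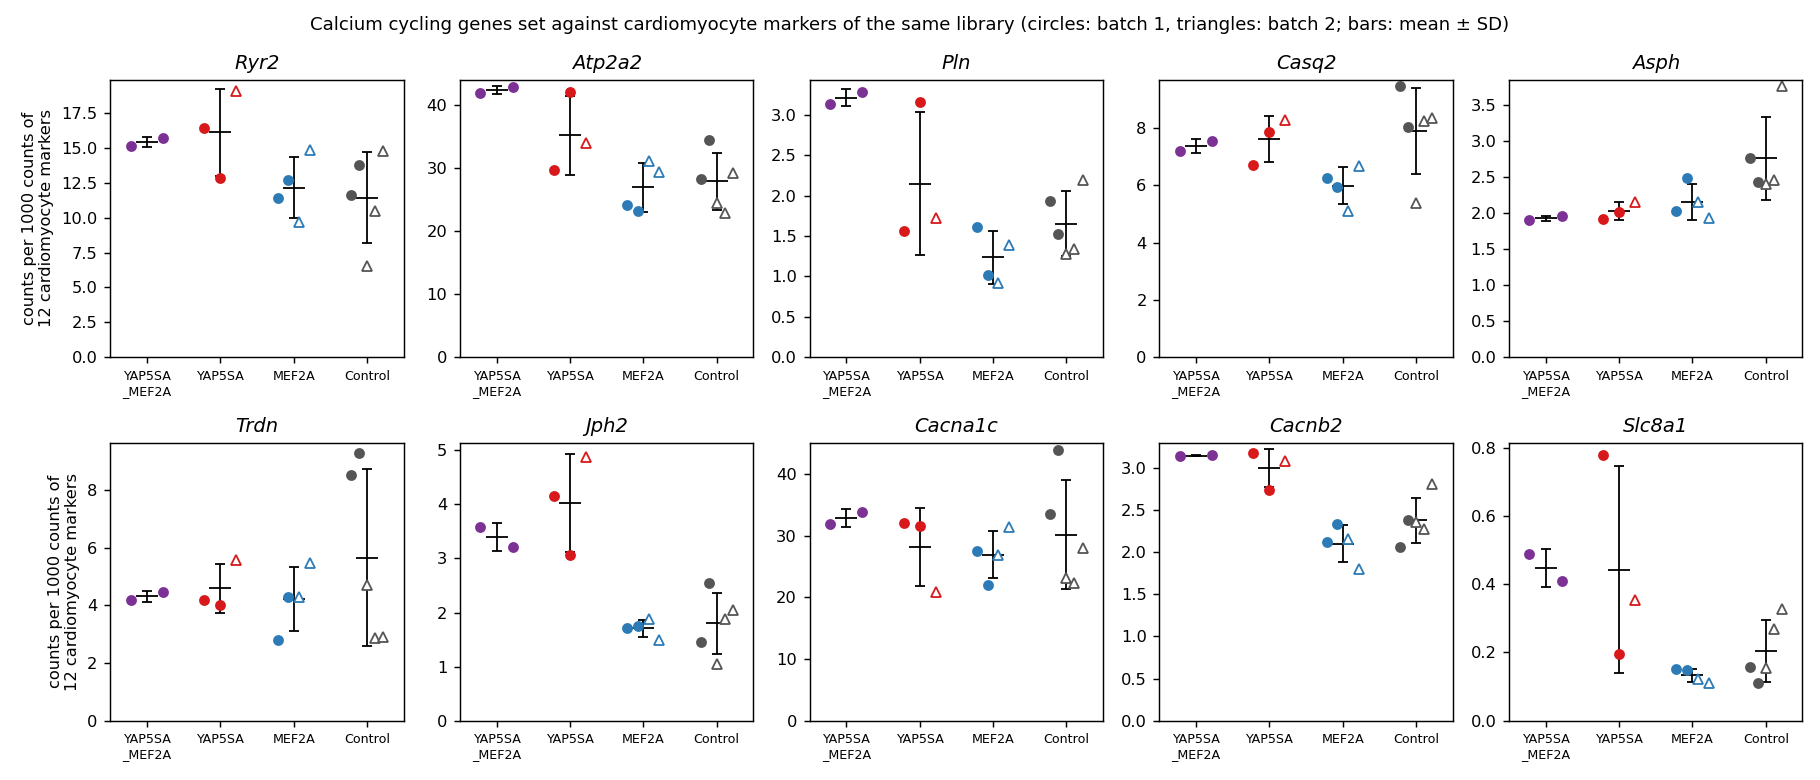
Counts of each of the 10 genes per 1000 counts of 12 cardiomyocyte markers in the same library, by group, with circles for batch 1, triangles for batch 2 and bars for mean ± SD. All 5 libraries with YAP5SA lie above all others for Jph2, and above the MEF2A libraries for Casq2, Cacnb2 and Slc8a1. Asph is below Control in both groups with YAP5SA. The summed markers are themselves lower in all 5 libraries with YAP5SA, and shares over all genes were not counted.

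Per kilobase of exon, Atp2a2 was the most abundant of the 10 genes in each group, at 345 ± 30.5 CPM per kilobase in YAP5SA_MEF2A (SD, n = 2), 246 ± 77.7 in YAP5SA (n = 3), 433 ± 68.2 in MEF2A (n = 4) and 327 ± 57.4 in Control (n = 5). Casq2 and Cacna1c followed in that order in each group, at 203 ± 19.7 and 99.5 ± 18.4 CPM per kilobase in Control. The library ranges of these 3 genes did not overlap in any group. The middle of the order was crowded: in Control, Pln (42.3), Trdn (42.1), Jph2 (29.2) and Ryr2 (27.4) overlapped from each gene to the next. Jph2 had rank 5 in YAP5SA_MEF2A (39.4 CPM per kilobase), 4 in YAP5SA (38.8), 7 in MEF2A (39.1) and 6 in Control. Cacnb2, Asph and Slc8a1 closed the order in every group, and Slc8a1 was far below the rest, at 1.17, 0.979, 0.685 and 0.780 CPM per kilobase in YAP5SA_MEF2A, YAP5SA, MEF2A and Control.

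Ratios of 2 genes within a library do not depend on scaling, and 5 were set up as tests of the balance of the cycle, comparing the 5 libraries with YAP5SA with the 9 without. None passed an exact two-sided permutation test adjusted over the 5. Pln to Atp2a2, inhibitor to pump, was higher by 0.32 on the log2 scale with YAP5SA (adjusted p = 0.189, exact permutation test), while in YAP5SA against Control alone it differed by -0.00095 (p = 1.0, exact permutation test). Slc8a1 to Atp2a2, extrusion to uptake, was higher by 0.86 (unadjusted p = 0.0609, adjusted p = 0.189, exact permutation test), and by 0.53 without YAP5SA 1. Cacna1c to Ryr2, entry to release, differed by -0.38 and Cacnb2 to Cacna1c, the channel's subunits, by 0.37 (adjusted p = 0.189 each, exact permutation test). Without YAP5SA 3 these differences were -0.18 and 0.24. Asph to Trdn, the anchors, differed by -0.26 (adjusted p = 0.464, exact permutation test), and by 0.09 within batch 1. That test leaves batch aside. With labels permuted within batch, the 5 differences in the same order were 0.24, 0.94, -0.48, 0.50 and -0.14. None passed, with adjusted p of 0.357, 0.103, 0.103, 0.103 and 0.714 (exact permutation test within batch). The unadjusted p of Cacnb2 to Cacna1c was 0.0286 in that test.

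Over the 14 libraries, which share groups and batches, the 10 genes did not all vary together. The Pearson correlation of Casq2 with Asph was 0.91, the highest of the 45 pairs, followed by Atp2a2 with Cacna1c at 0.85. Slc8a1 with Trdn had the lowest, at -0.63, and Casq2 with Jph2 was at -0.47. Against the mean profile of all 10, Cacna1c (0.89), Cacnb2 (0.88) and Atp2a2 (0.88) were closest, and Jph2 (-0.05) and Slc8a1 (-0.07) were near 0. Each of the 10 is part of that profile, which raises its own correlation with it, unlike that of other genes. The mean profile was lowest in YAP5SA 3 and highest in MEF2A 4. Among 11864 other genes, those with the profile most like it over the 14 libraries were Ctr9 (r = 0.96), Idua (0.96), Kmt2c (0.95), Wnk2 (0.95) and Mapk1ip1 (0.94).

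Beyond the 10 genes, 75 other genes of cardiac calcium control were listed by role, and 74 were in the table and tested. In YAP5SA against Control 5 of them rose and 8 fell, where 5.69% of all genes rose and 4.17% fell, and their median log2 fold change was -0.01, against 0.06 over all genes. Of 6 tested genes of calcium uptake and its regulators 1 fell, and of 16 genes of the store and its release 1 rose and 2 fell. Of 9 genes of the dyad and T-tubules 1 rose and 1 fell, as did 1 and 1 of 13 genes of voltage-gated channels and their regulators. Of 14 genes of extrusion, mitochondrial uptake and store-operated entry 2 rose and 1 fell, and of 16 genes of kinase, phosphatase and cyclic AMP control 2 fell.

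The genes that fell came from all 6 lists. Speg, a kinase of the junctional membrane, averaged 868 CPM in YAP5SA and 1958 CPM in Control (log2 fold change -1.1997 ± 0.19 SE, adjusted p = 7.94e-04). Tmem38a, the cation channel TRIC-A of the reticulum, averaged 61.4 CPM in YAP5SA and 133 CPM in Control (-1.14 ± 0.22, adjusted p = 0.00341). These calls held without any 1 library. They were lost with library totals (adjusted p = 0.49 and 0.456) and without Controls 1 and 2 and YAP5SA 3 (adjusted p = 0.223 and 0.447). Hrc, the histidine-rich calcium binding protein of the lumen, averaged 18.7 CPM in YAP5SA and 43.9 CPM in Control (-1.19 ± 0.32, adjusted p = 0.0262), and Srl, sarcalumenin, 133 CPM in YAP5SA and 222 CPM in Control (-0.73 ± 0.21, adjusted p = 0.0369). Stim1, the sensor of store-operated entry, fell by 1.25 ± 0.30 on the log2 scale (adjusted p = 0.0129). Camk2b, a calmodulin-dependent kinase, fell by 1.14 ± 0.27 (adjusted p = 0.0114), Pde3a, a phosphodiesterase, by 0.87 ± 0.24 (adjusted p = 0.0306) and Cacnb4, a channel beta subunit, by 1.42 ± 0.42 (adjusted p = 0.0383). Leaving out YAP5SA 1 ended the calls of Hrc, Srl, Stim1, Camk2b, Pde3a and Cacnb4 (adjusted p = 0.0548 to 0.159), and leaving out YAP5SA 3 those of Stim1, Camk2b, Pde3a and Cacnb4. Hrc was also lost without Control 1 or Control 4 and Pde3a without Control 2, and Srl and Cacnb4 were each lost without any 1 of 8 libraries.

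The genes that rose included the skeletal muscle forms of Casq2 and Cacna1c. Casq1, the calsequestrin of skeletal muscle, averaged 54.9 CPM in YAP5SA and 12.2 CPM in Control (log2 fold change 2.12 ± 0.36 SE, adjusted p = 0.00184), and its call held without any 1 library. Without Controls 1 and 2 and YAP5SA 3 the change of Casq1 was 1.09 (adjusted p = 0.599). Cacna1s, the pore of the skeletal L-type channel, had 21.9, 19.5 and 19.6 CPM in YAP5SA, against 0, 0, 0, 2.82 and 2.08 CPM in Control (adjusted p = 0.0218), a call lost without YAP5SA 1, YAP5SA 3 or either YAP5SA_MEF2A library (adjusted p = 0.0572 to 0.0926). Cav3, caveolin-3, rose by 1.59 ± 0.29 on the log2 scale (adjusted p = 0.00277) and Atp1b1, a subunit of the sodium pump, by 1.80 ± 0.34 (adjusted p = 0.00434). Both calls were lost without YAP5SA 3 (adjusted p = 0.118 for Cav3 and 0.0858 for Atp1b1). Of the exon sequence of Atp1b1, 18.66% overlaps a gene of the other strand. Atp2b1, a calcium pump of the cell membrane, rose by 0.93 ± 0.20 (adjusted p = 0.00669), a call lost without YAP5SA 1 (adjusted p = 0.0567).

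In YAP5SA against MEF2A 8 of the 74 genes rose and 15 fell, where 7.77% of all genes rose and 7.12% fell, with a median of -0.14, against 0.08 over all genes. Of the named genes, Casq1 (2.68 ± 0.39, adjusted p = 3.93e-04) and Atp1b1 (2.16 ± 0.37, adjusted p = 0.00154) rose and Speg (-1.61 ± 0.20, adjusted p = 7.96e-05), Tmem38a (-1.40 ± 0.23, adjusted p = 8.57e-04) and Fxyd1, which encodes phospholemman (-0.85 ± 0.18, adjusted p = 0.00514), fell, and these 5 calls held without any 1 library. Ryr3, another ryanodine receptor, and Cav3 rose as well, and Srl, Rrad, Cacnb1, Cacnb4, Stim1, Pde3a, Camk2b and Adcy5, an adenylate cyclase, fell, with adjusted p of 0.00665 to 0.032. Without YAP5SA 3 each of these 10 calls but that of Srl was lost. Without YAP5SA 1 the calls of Srl, Ryr3, Rrad, Cacnb1, Cacnb4, Pde3a and Camk2b were lost, and those of Ryr3, Cacnb1 and Cacnb4 were also lost without a MEF2A library. In YAP5SA_MEF2A against MEF2A 3 of the 74 rose (Casq1, Cacna1s and Gem, a small GTPase that restrains the channel) and 3 fell (Tmem38a, Speg and Atp2b2, a membrane calcium pump), with adjusted p of 0.0129 to 0.0489. In YAP5SA_MEF2A against Control Cacna1s was the 1 gene called (adjusted p = 0.0374), and it was lost without any 1 of 11 libraries. The 6 calls against MEF2A were all lost without either YAP5SA_MEF2A library and without MEF2A 2. None of the 74 was called in MEF2A against Control, where edgeR gave 5 higher and 1 lower at an unadjusted p under 0.05 and DESeq2 and limma-voom called none. Of all 17987 genes, 1308 passed that unadjusted p in either direction.

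Several well-known partners of the 10 genes were not called in YAP5SA against Control. Sln, sarcolipin, another inhibitor of the pump, averaged 19.9 CPM in YAP5SA_MEF2A, 15.5 in YAP5SA, 15.4 in MEF2A and 18.4 in Control. Camk2d, the main calmodulin-dependent kinase of the heart, averaged 384, 269.5, 355 and 295 CPM in the same groups, and Cacna2d1, the alpha-2/delta subunit, 163, 161, 206.5 and 156 CPM. Rrad, a brake on the L-type channel, averaged 225 CPM in YAP5SA_MEF2A, 152 in YAP5SA, 379 in MEF2A and 270.3 in Control. Fkbp1b, which binds the release channel, had at most 3.41 CPM in any library. Jph1 averaged 3.37 CPM in YAP5SA_MEF2A, 6.53 in YAP5SA, 3.82 in MEF2A and 3.65 in Control. Bin1, which shapes T-tubules, averaged 18.8 CPM in YAP5SA_MEF2A, 31.6 in YAP5SA, 23.1 in MEF2A and 19 in Control (YAP5SA against Control adjusted p = 0.0992).

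The balance between cardiac genes and their skeletal counterparts differed by group, as seen after these values were known. Per 1000 counts of Casq2 there were 96.4 and 78.0 counts of Casq1 in YAP5SA_MEF2A, 269, 71.8 and 209 in YAP5SA, 23.95, 13.5, 16.2 and 5.90 in MEF2A, and 18.5, 21.3, 18.1, 26.4 and 25.9 in Control. All 5 libraries with YAP5SA were above all 9 without it. Per 1000 counts of Cacna1c there were 39.9 and 35.0 counts of Cacna1s in YAP5SA_MEF2A, 15.8, 12.7 and 27.2 in YAP5SA, 0.826, 0.689, 0.483 and 0.645 in MEF2A, and 0, 0, 0, 1.70 and 1.15 in Control. Here both YAP5SA_MEF2A libraries were the highest. The 0 counts allow up to 0.163, 0.152 and 0.0505 in Controls 1, 2 and 3 (3 counts, for counting error only). The counts of Cacna1s are uncertain, since 19.98% of its exon sequence overlaps a gene of the other strand. The summed level of 12 skeletal muscle markers was 240.6 to 245.7 CPM in YAP5SA_MEF2A, 73.8 to 125 in YAP5SA, 13.2 to 19.6 in MEF2A and 13.3 to 31.4 in Control. In YAP5SA against Control 4 of the 8 that could be tested rose, where 5.69% of all genes rose. Myod1 and Tnnc2 of that list were at 0 in all libraries. Whether these markers have a part in the ratios was not tested.

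**Figure D5:**
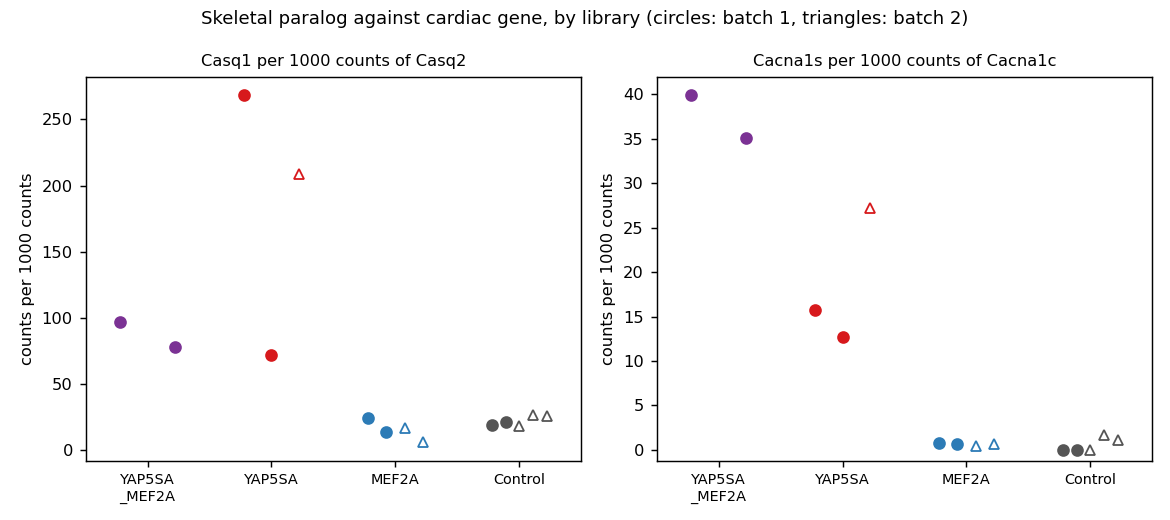
Counts of Casq1 per 1000 counts of Casq2 (left) and of Cacna1s per 1000 counts of Cacna1c (right) in each library, on linear axes, with circles for batch 1 and triangles for batch 2. In both panels all 5 libraries with YAP5SA lie above all 9 without it.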

How the data were processed

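Read counts per gene of 14 libraries were analysed as deposited by the authors. Per the submitters' processing notes, STAR, edgeR and limma were used with GRCm38; their versions, the counting step, its strand setting and the annotation release are not given in the sources used here. Symbols and exon lengths came from GENCODE vM21 on GRCm38. Genes passing filterByExpr (minimum count 10, minimum total 15; 17987 of 54446) were scaled by TMM and tested with edgeR 4.0.16 in R 4.3.3 by the quasi-likelihood F-test, in one fit over all 14 libraries with group and batch as terms. P-values were adjusted over all tested genes by Benjamini-Hochberg with a threshold of 0.05. The biological coefficient of variation was 0.503. CPM use TMM-scaled library sizes, and log2 CPM a prior count of 2. Ratios added 0.5 counts to each gene. The fits were tested on simulated data. The 10 genes, the lists of other calcium genes and the tests were chosen with earlier results of these data known. Named from the lists were, per comparison and list, up to 3 called genes with the smallest p, and Sln, Hrc, Fkbp1b, Jph1, Bin1, Cav3, Camk2d, Cacna2d1 and Rrad whatever their values. The 5 genes with a profile most like the 10 were ranked among genes with a mean log2 CPM of at least 1. Alternatives were DESeq2 1.42.0, limma-voom (limma 3.58.1), other scalings, filters and covariates, subsets of libraries and each library left out in turn. Replicate numbers are those of the labels. No columns or libraries were left out.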

Additional observations from a re-analysis of the deposited data

How the results depend on the processing

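Counts of the 10 genes went down to 50 (Slc8a1 in Control 2), and whether depth or the 2 to 5 libraries a group limited the calls was not tested. Where 1 YAP5SA_MEF2A library was left out the other was assumed to vary like the rest. Of the log2 fold changes recomputed with 1 library left out, 769 kept their direction and side of the threshold, 143 lost a call, 9 gained one and 3 changed sign. Under the other alternatives 793 kept both, 154 lost a call, 22 gained one and 21 changed sign. The cause of these changes was not tested, apart from the loss of libraries where they were left out. Dividing by totals without mitochondrial transcripts was chosen after seeing the data.

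In YAP5SA against Control, 3 of the 10 genes were called. Library totals called 0, a fit of those groups only 1 and a fit without Controls 1 and 2 and YAP5SA 3 1 (Asph, -1.42, adjusted p = 0.0488, with all Controls then in batch 2 and both YAP5SA libraries in batch 1). Leaving out 1 library gave 1 to 5. The shares of all genes called in these settings were 9.65%, 4.47%, 0.428% and 3.08% to 16.7%, in the same order. Signs changed with library totals for Ryr2 (0.42), Atp2a2 (0.35), Pln (0.27) and Cacnb2 (0.23), within batch 1 for Pln (0.0336), without Controls 1 and 2 for Slc8a1 (-0.44), and without Controls 1 and 2 and YAP5SA 3 for Atp2a2 (0.0869) and Slc8a1 (-0.13). Slc8a1 ran from -0.35 to 0.91 over the libraries left out. A term for sex gave Trdn -1.38 (adjusted p = 7.03e-04).

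In YAP5SA against MEF2A, 7 genes were called. Library totals called 0, totals without mitochondrial transcripts 3, batch 1 2 and the fit without Controls 1 and 2 and YAP5SA 3 1, and leaving out 1 library gave 2 to 7. The shares of all genes called in these settings were 8.92%, 18.4%, 4.1%, 4.89% and 4.76% to 21.6%, in the same order. Jph2, at -0.0046, was above 0 with RLE scaling (0.0197), library totals (0.43), mitochondrial genes removed (0.0248), totals without them (0.31), no filter (0.0017), DESeq2 (0.0197), the replicate block (0.0049), a sex term (0.14) and no Controls 1 and 2 (0.004), and ran from -0.087 to 0.0592 over the libraries left out, as Slc8a1 did from -0.31 to 0.94. Pln was at 0.0852 with library totals.

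In YAP5SA_MEF2A against Control, 0 genes were called, against 2 with no filter, DESeq2 or batch 1 alone, and 1 with totals without mitochondrial transcripts, a minimum count of 50, limma-voom, no batch term or no Controls 1 and 2, all of them falls; those groups only called 1, Slc8a1, which rose (1.42, adjusted p = 0.0268). Leaving out 1 library gave 0 to 1. Of all genes, 3.16% were called with no filter, 4.53% with DESeq2, 8.58% in batch 1 and 6.54% with those groups only. The other settings named called 0.773% to 2.61%. Library totals put Casq2 at 0.21 and Trdn at 0.006, and Trdn was at 0.0501 without Controls 1 and 2 and YAP5SA 3. In YAP5SA_MEF2A against MEF2A, 1 gene was called, against 0 with library totals or the replicate block, 2 with no filter or DESeq2, and 4 with those groups only; leaving out 1 library gave 0 to 1, as it did in YAP5SA_MEF2A against YAP5SA. In YAP5SA_MEF2A against MEF2A, library totals called 2.39% of all genes, the replicate block 1.15% and no filter 3.73%. DESeq2 called 5.88% there and a fit of those groups only 15.8%. The ratio of Asph to Trdn was 0.0907 within batch 1. With the replicate number as a block, 2 genes were called in YAP5SA against Control (Asph and Trdn at -1.26, adjusted p = 0.0386, and not Casq2 or Cacna1c, adjusted p = 0.0527 and 0.0958), 5 in YAP5SA against MEF2A and 0 in YAP5SA_MEF2A against MEF2A. That block called 5.21%, 8.75% and 1.15% of all genes in these comparisons, in the same order. Same-numbered libraries, which also share a batch, correlated at -0.184 to 0.0894 about their group means. About the means of group and batch they correlated at -0.404 to 0.0544. Whether they share anything beyond batch and number was not tested.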
